A study of Mus musculus with 4 samples.

Results

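The NR4A, EGR and AP-1 immediate early genes were read in sorted mouse CD4+ T cells. Members were taken by name: Nr4a1, Nr4a2, Nr4a3, Egr1, Egr2, Egr3, Fos, Fosb, Jun and Junb, each through the probe sets that the platform annotation assigns to exactly 1 gene. All 10 genes had at least 1 such probe set, 20 probe sets in all, among 18193 genes on the array. Foxp3+ cells had been sorted into CD25hi and CD25lo populations and Foxp3- cells into CD25+ and CD25- populations, and each of the 4 was read on 1 array. All came from 1 pool of spleen and lymph node cells taken from 25 mice, all male, B6/129 F2 and 5 to 8 weeks old. In these mice GFP is knocked in at Foxp3, the gene of the factor that defines regulatory T cells, and all 4 populations carry this allele. Cells with CD8, B220, CD11b, NK1.1 or DX5 were depleted before the sort on CD4, GFP and CD25, an IL-2 receptor chain. Because the animals were pooled and no population was repeated, no test could be made. Differences are given by their size beside the same measure over all measured genes.

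Immediate early genes are switched on within minutes of a signal, without new protein synthesis, by transcription factors that are already in the cell. In T cells the signal of the antigen receptor reaches them through the ERK and JNK kinases and calcineurin. The NR4A genes encode orphan nuclear receptors, and the EGR genes encode zinc finger factors. FOS and JUN proteins pair through their leucine zippers to form AP-1. In T cells Nr4a1 is widely used as a mark of antigen receptor signalling, Egr2 and Egr3 are known for restraining activation, and AP-1 works with NFAT to switch on cytokine genes.

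The promoters of 3 members are shown because they set the member with the widest difference between populations, Egr2, beside 2 members, Nr4a1 and Fos, whose arrays stayed within 2-fold. Each is the 250 bases before a RefSeq start site, from RefSeq on build GRCm38.p6, 5' to 3' along the gene, with matches to the motifs searched in capitals. The Egr2 window is chr10:67537619-67537868 on the + strand, with a CArG box, the site of serum response factor, that begins 72 bases before the start. The Nr4a1 window is chr15:101266596-101266845 on the + strand, with a match to the EGR site 60 bases before the start. The Fos window is chr12:85473640-85473889 on the + strand and held no match within these 250 bases. Sites farther from the start were not searched, so a gene without a match here may still have such sites.
Egr2: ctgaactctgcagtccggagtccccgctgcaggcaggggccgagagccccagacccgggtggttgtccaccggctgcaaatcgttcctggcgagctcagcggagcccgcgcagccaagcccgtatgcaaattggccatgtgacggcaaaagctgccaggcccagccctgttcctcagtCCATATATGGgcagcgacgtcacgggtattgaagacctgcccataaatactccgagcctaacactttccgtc
Nr4a1: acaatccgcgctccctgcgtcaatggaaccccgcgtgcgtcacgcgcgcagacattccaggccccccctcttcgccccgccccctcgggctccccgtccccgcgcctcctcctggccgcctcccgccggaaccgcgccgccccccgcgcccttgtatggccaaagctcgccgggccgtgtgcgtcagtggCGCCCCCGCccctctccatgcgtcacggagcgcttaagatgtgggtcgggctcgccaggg
Fos: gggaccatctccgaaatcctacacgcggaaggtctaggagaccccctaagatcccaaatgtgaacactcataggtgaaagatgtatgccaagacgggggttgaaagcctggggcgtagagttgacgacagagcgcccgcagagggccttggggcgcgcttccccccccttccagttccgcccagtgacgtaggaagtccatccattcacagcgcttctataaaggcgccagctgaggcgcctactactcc

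The motifs were searched on both strands in 12 such windows of 8 members, Egr1 and Egr3 apart, and in all 32851 windows of the same length. The letters were TGACGTCA for the cyclic AMP response element, TGANTCA for AP-1, GCGNGGGCG for EGR proteins and AAAGGTCA for the element bound by NR4A monomers, and the CArG box was taken by its usual consensus. Of all windows, 1.47% held a CArG box, 4.7% the EGR letters, 6.75% the AP-1 letters, 1.55% the cyclic AMP letters and 1.34% the NR4A letters. Egr2 has 5 annotated starts, and the windows of 4 of them held a CArG box. In 3 of these, which overlap, it is the same CCATATATGG, and in the other it is CCTTTTTTGG. The EGR letters were found before Nr4a1, Nr4a2 and Fosb. In the 12 windows 0 matches to the remaining 3 motifs were found, which says only that these exact letters are not there. None of these matches overlapped another.

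The arrays shared a scale, with medians between 15.03 and 15.63. A probe set counted as measured when its highest array was at least 32.5, the 60th percentile of the intensities, and values under the 40th percentile, 10.1, were set to that floor. Where several probe sets of a gene passed, the brightest stood for it. This left 9622 measured genes, the 10 members among them, and every member reached the filter in all 4 arrays. Of the 20 member probe sets 15 passed the filter and 5 did not: 2 of Nr4a2, 2 of Nr4a3 and 1 of Egr3. Intensities of different probe sets are not comparable, so levels are set side by side only across populations.

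Most members differed little. The highest array lay at least 2-fold above the lowest for 2 of 10 members, Egr2 and Egr3, where 32.6% of all measured genes did so. The median ratio of highest to lowest array was 1.69-fold over the members and 1.68-fold over all measured genes, so as a group they varied about as much as a typical gene on these arrays. Against CD25- Foxp3- cells, Egr2 was the 1 member at least 2-fold higher in each of the other populations. It was higher in CD25hi Foxp3+ cells, where 7.09% of measured genes passed that fold, in CD25lo Foxp3+ cells (9.09%) and in CD25+ Foxp3- cells (12.1%). The count of members at least 2-fold lower was 0 in each, against 3.74% of measured genes in CD25hi Foxp3+, 6.88% in CD25lo Foxp3+ and 6.43% in CD25+ Foxp3- cells.

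**Figure D1:**
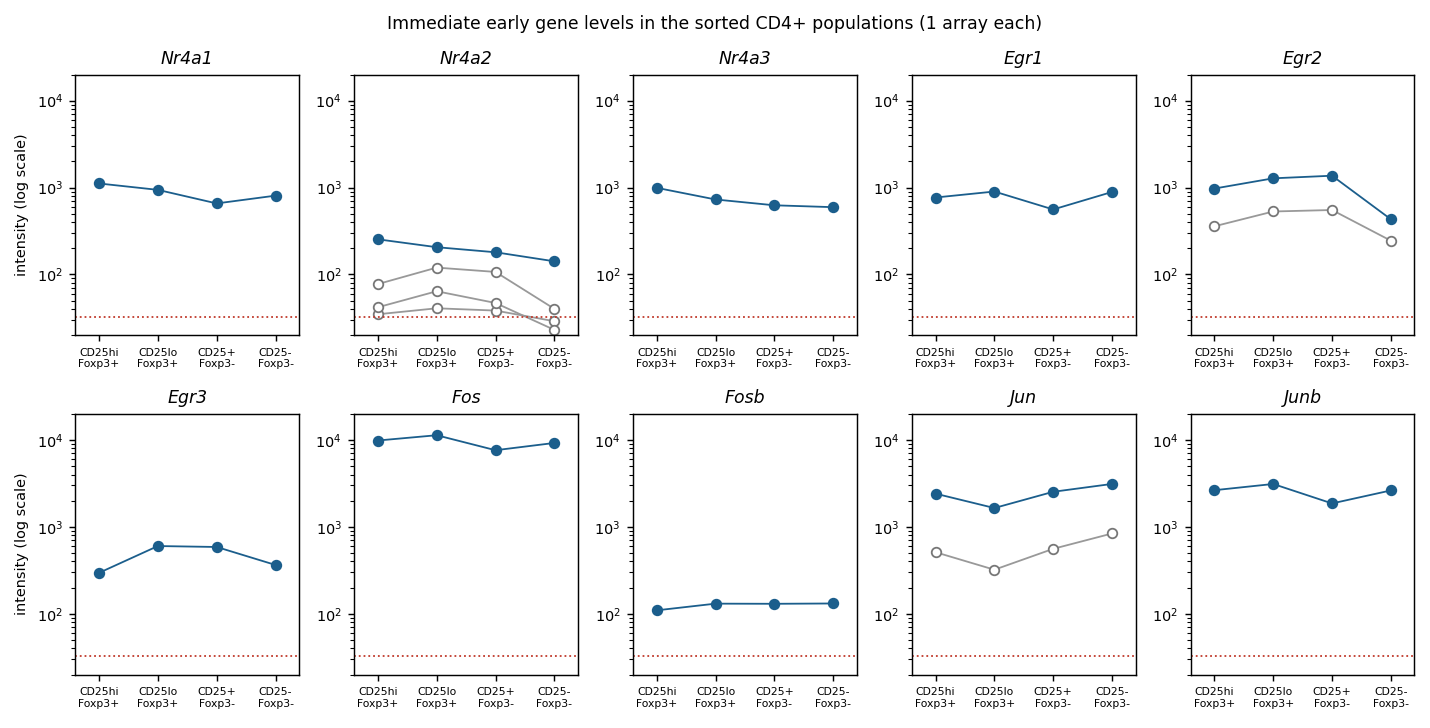
Intensity (log axis) of each member in the 4 populations, 1 array each. Filled points are the probe set a gene is read from, open points its other probe sets past the filter, and the dotted line is the filter at 32.5. Egr2 is lowest in CD25- Foxp3- cells in both of its probe sets, and the 4 Nr4a2 probe sets do not share 1 order.

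Among the EGR genes, Egr2 showed the widest difference of all members. Its protein is a zinc finger factor that limits T cell activation and helps to keep T cells tolerant. Its intensity was 975 in CD25hi Foxp3+, 1279 in CD25lo Foxp3+ and 1370.1 in CD25+ Foxp3- cells, against 432 in CD25- Foxp3- cells. The CD25- Foxp3- array was thus far below the other 3, which lay within 1.41-fold of each other. Against it Egr2 was 2.26-fold higher in CD25hi Foxp3+, 2.96-fold in CD25lo Foxp3+ and 3.17-fold in CD25+ Foxp3- cells. The other Egr2 probe set gave 359 in CD25hi Foxp3+, 531 in CD25lo Foxp3+ and 552 in CD25+ Foxp3- cells, against 245 in CD25- Foxp3- cells. The order was the same with smaller ratios, and the CD25hi Foxp3+ difference, 1.46-fold, did not reach 2-fold. The step between CD25+ Foxp3- and CD25lo Foxp3+ cells, 1.07-fold, was smaller than that of the median gene, 1.3-fold.

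Egr3, a close relative that shares much of the role of Egr2, divided the populations another way. It read 296 in CD25hi Foxp3+, 602 in CD25lo Foxp3+ and 587 in CD25+ Foxp3- cells, against 365 in CD25- Foxp3- cells. CD25lo Foxp3+ and CD25+ Foxp3- cells were therefore a high pair, 1.03-fold apart, and the other populations a low pair, 1.23-fold apart. CD25hi Foxp3+ cells were 2.03-fold lower than CD25lo Foxp3+ cells, where Egr3 was the 1 of 10 members to differ by 2-fold and 5.72% of all measured genes did so. Against CD25+ Foxp3- cells they were 1.98-fold lower, just short of that threshold, and with the arrays scaled to a common median the threshold was reached. CD25lo Foxp3+ cells were 1.65-fold and CD25+ Foxp3- cells 1.61-fold above CD25- Foxp3- cells. The second Egr3 probe set did not reach the filter, so these values rest on 1 probe set.

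Egr1, the family member with the broadest use as an immediate early marker, read 769 in CD25hi Foxp3+, 901 in CD25lo Foxp3+ and 560.3 in CD25+ Foxp3- cells, against 891 in CD25- Foxp3- cells. The CD25+ Foxp3- array was the low one, at 0.629 times the CD25- Foxp3- array, and the other 3 lay within 1.17-fold. None of the other populations stood above CD25- Foxp3- cells by more than 1.01-fold. The 3 EGR genes thus had 3 different orders of the populations.

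**Figure D2:**
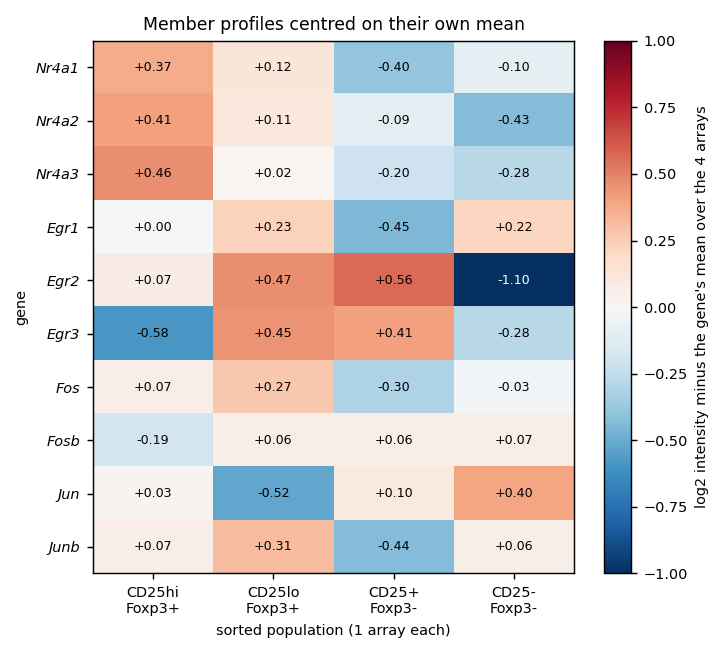
Log2 intensity of each member minus its own mean over the 4 arrays, by population (1 array each), with red above and blue below that mean. Egr2 is 1.10 below its mean in CD25- Foxp3- cells and Egr3 0.58 below in CD25hi Foxp3+ cells, while Fos, Junb and Egr1 share a low value in CD25+ Foxp3- cells.

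Of the NR4A genes, Nr4a1 and Nr4a3 were highest in CD25hi Foxp3+ cells, with ranges of less than 2-fold, and Nr4a2 differed between its probe sets. Nr4a1 (Nur77), the receptor signalling marker, read 1116 in CD25hi Foxp3+, 942 in CD25lo Foxp3+ and 657 in CD25+ Foxp3- cells, against 808 in CD25- Foxp3- cells. Both Foxp3+ arrays were above both Foxp3- arrays, but each step in the order was smaller than the median difference of all measured genes between the same arrays. Steps of 1.18, 1.17 and 1.23 stood against medians of 1.21, 1.32 and 1.37. Neighbours in a gene's own order tend to lie closer than arrays in general. For any member, a step under the median is therefore no sign of little difference. The median gene differed by 1.29-fold between the highest and lowest Nr4a1 arrays, likewise picked by the order, and Nr4a1 by 1.7-fold. For any member, a ratio between its own highest and lowest arrays passes such a median easily. The like measure is the median range of all measured genes, 1.68-fold. Nr4a3 (NOR-1), its paralog, read 994 in CD25hi Foxp3+, 729.95 in CD25lo Foxp3+ and 626 in CD25+ Foxp3- cells, against 595 in CD25- Foxp3- cells. The CD25hi Foxp3+ array was 1.67-fold above the CD25- Foxp3- array, where the median gene differed by 1.21-fold. The step of 1.36 to CD25lo Foxp3+ cells was the only 1 of the 3 Nr4a3 steps above that of the median gene.

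Nr4a2 (Nurr1), the remaining family member, depends on the probe set. The brightest gave 254 in CD25hi Foxp3+, 206 in CD25lo Foxp3+ and 180.2 in CD25+ Foxp3- cells, against 142 in CD25- Foxp3- cells, an order that starts with CD25hi Foxp3+ as for Nr4a1 and Nr4a3. It is of the kind marked _s, whose probes may match several transcripts, and the platform annotation lists it under Nr4a2 without an accession. The next brightest gave 77.6 in CD25hi Foxp3+, 120.1 in CD25lo Foxp3+ and 107 in CD25+ Foxp3- cells, against 40.2 in CD25- Foxp3- cells, so CD25lo Foxp3+ cells were highest, 2.98-fold above CD25- Foxp3- cells. In CD25+ Foxp3- cells the same probe set was 2.66-fold and in CD25hi Foxp3+ cells 1.93-fold above CD25- Foxp3- cells. The remaining measured probe sets lay near the filter. The brighter of them read 42.0 in CD25hi Foxp3+, 64.2 in CD25lo Foxp3+ and 47.0 in CD25+ Foxp3- cells, against 23.1 in CD25- Foxp3- cells, and the dimmer 34.9, 40.9 and 38.4 in the same populations, against 29.0 in CD25- Foxp3- cells. All 4 put CD25- Foxp3- cells lowest, and 3 of the 4 put CD25lo Foxp3+ cells highest. The size of the Nr4a2 difference, and whether it reaches 2-fold, cannot be settled from these probe sets.

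Of the AP-1 genes, Fos read 9863 in CD25hi Foxp3+, 11346 in CD25lo Foxp3+ and 7628 in CD25+ Foxp3- cells, against 9245 in CD25- Foxp3- cells. Fos encodes the founding member of the FOS family, and its mRNA is among the shortest lived in the cell. Its highest and lowest arrays were 1.49-fold apart, where the median gene differed by 1.3-fold, and every step in its order was below that of the median gene. Junb, whose protein pairs with FOS and BATF, read 2644 in CD25hi Foxp3+, 3117 in CD25lo Foxp3+ and 1862 in CD25+ Foxp3- cells, against 2628 in CD25- Foxp3- cells. The CD25+ Foxp3- array was again the low one, 1.41-fold below CD25- Foxp3- cells, where the median gene differed by 1.37-fold. The other Junb steps were smaller than those of the median gene. Between CD25lo Foxp3+ and CD25+ Foxp3- cells, its highest and lowest arrays, Junb differed by 1.67-fold and the median gene by 1.3-fold. For Fos as for Junb these arrays were picked by the gene's own order. Neither gene exceeded the median range of all measured genes, 1.68-fold.

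Jun, the founding JUN family member, ran another way. It read 2413 in CD25hi Foxp3+, 1648 in CD25lo Foxp3+ and 2535 in CD25+ Foxp3- cells, against 3121 in CD25- Foxp3- cells. CD25lo Foxp3+ cells were lowest and CD25- Foxp3- cells highest, 1.89-fold apart, where the median gene differed by 1.32-fold. The median range of all measured genes, each between its own highest and lowest arrays, was 1.68-fold. The step to CD25lo Foxp3+ from CD25hi Foxp3+ cells, 1.46-fold, was the one above the median gene. The other Jun probe set gave 511 in CD25hi Foxp3+, 322 in CD25lo Foxp3+ and 559 in CD25+ Foxp3- cells, against 839.9 in CD25- Foxp3- cells, the same order with a 2.61-fold range. Fosb, a FOS relative, was nearly level, at 109.6 in CD25hi Foxp3+, 131 in CD25lo Foxp3+ and 130.4 in CD25+ Foxp3- cells, against 131 in CD25- Foxp3- cells. The only visible step was the CD25hi Foxp3+ array, at 0.834 times CD25- Foxp3- cells, and no step reached that of the median gene.

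Read by Foxp3, 6 of 10 members did not overlap between the Foxp3+ and the Foxp3- arrays, where 31.9% of all measured genes did not. Their gaps were narrow. The lower Foxp3+ array exceeded the higher Foxp3- array by 1.17-fold for Nr4a1 and for Nr4a3, 1.14-fold for Nr4a2, 1.07-fold for Fos and 1.01-fold for Junb, and Jun lay the other way by 1.05-fold. The count depended on the scaling and the probe set. Junb was lost with the arrays scaled to a common median, Junb and Jun under quantile normalization, which left 4 of 10 against 32% of all measured genes, and Nr4a2 with either other choice of probe set. At a gap of 1.5-fold the count was 0 of 10, against 4.73% of measured genes. Read by CD25, with CD25hi Foxp3+ and CD25+ Foxp3- arrays set against CD25lo Foxp3+ and CD25- Foxp3- arrays, it was again 0 of 10, against 1.29%. Under the pairing that follows neither marker 1 member passed, Egr3 with 1.61-fold, against 3.06%.

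Between the populations other than CD25- Foxp3-, the count at 2-fold or more was 0 of 10 members for CD25hi Foxp3+ over CD25+ Foxp3- cells, with 11.7% of measured genes, and 0 of 10 for CD25lo Foxp3+ over CD25+ Foxp3- cells, with 14.2%. The median log2 difference of the members was 0.41 for CD25hi Foxp3+ over CD25+ Foxp3- cells, against 0.03 for all measured genes. In this comparison 8 of 10 members differed by more than the median gene, which differed by 1.29-fold in either direction. That count was 6, 4 and 4 of 10 for CD25hi Foxp3+, CD25lo Foxp3+ and CD25+ Foxp3- cells set against CD25- Foxp3- cells, and 5 of 10 in each of the remaining comparisons. The widest were Egr3, named above, and Nr4a1, 1.7-fold higher in CD25hi Foxp3+ cells. For CD25lo Foxp3+ over CD25+ Foxp3- cells the median was 0.21, against -0.01 for all measured genes. By any amount 8 of 10 members were higher, but Fosb and Egr3 only by 0.006 and 0.036. For CD25hi Foxp3+ over CD25lo Foxp3+ cells the median was -0.21, against 0.05, and 6 of 10 members were lower. The shares of all measured genes higher or lower by any amount were not computed.

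**Figure D3:**
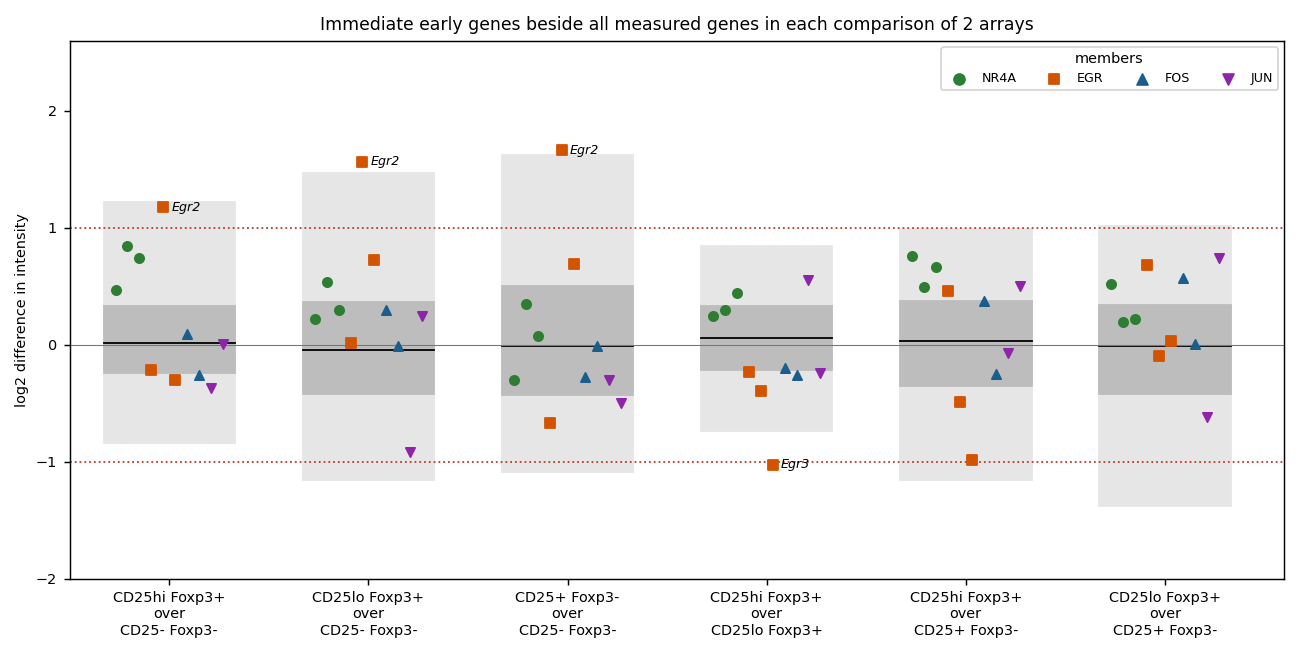
Log2 difference in intensity of each member (coloured points, 1 array against 1) in the 6 comparisons of 2 arrays. Pale bars span the 5th to 95th percentile of 9622 measured genes, dark bars the middle quartiles, black lines the median, and dotted lines mark 2-fold. Egr2 in the comparisons with CD25- Foxp3- cells and Egr3 between the Foxp3+ populations are the points past 2-fold.

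Against CD25- Foxp3- cells the members had median log2 differences of 0.05 in CD25hi Foxp3+, 0.27 in CD25lo Foxp3+ and -0.14 in CD25+ Foxp3- cells. For all measured genes these were 0.02, -0.05 and -0.01. The 3 comparisons share the CD25- Foxp3- array. Of 10 members 4 were at their lowest in CD25+ Foxp3- cells, namely Nr4a1, Egr1, Fos and Junb, as were 30.6% of all measured genes. The 3 NR4A genes were the members highest in CD25hi Foxp3+ cells, as were 17.7% of all measured genes, which for Nr4a2 holds in 1 of its 4 measured probe sets.

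The members fell into patterns of unequal tightness. Likeness was taken as the root mean square distance between log2 profiles over the 4 arrays, each centred on its mean. Over the 45 pairs of members the median distance was 0.428. The closest pair was Fos and Junb with 0.081, followed by Egr1 and Junb with 0.092, Nr4a2 and Nr4a3 with 0.111, Egr1 and Fos with 0.147 and Nr4a1 and Nr4a3 with 0.149. The Nr4a2 distances rest on its brightest probe set. Its other measured probe sets put CD25lo Foxp3+ and not CD25hi Foxp3+ cells highest, so the closeness of Nr4a2 to Nr4a3 depends on the probe set. Egr2 and Jun were farthest apart with 0.928, and Egr2 and Egr3 lay at 0.531 in spite of their relation. With 4 arrays many genes are alike by this measure. Among 3020 other named genes with a 2-fold range, 170 lay within 0.25 of Egr2 and 64 within 0.25 of Egr3.

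Closest to Egr2 were Cibar1 with a distance of 0.039 and Rel, an NF-kappaB subunit, with 0.065. Rel read 109 in CD25hi Foxp3+, 130.1 in CD25lo Foxp3+ and 138 in CD25+ Foxp3- cells, against 47.4 in CD25- Foxp3- cells. Closest to Egr3 were Nsmaf with 0.034 and Mex3b with 0.064. Nsmaf read 611 in CD25hi Foxp3+, 1321 in CD25lo Foxp3+ and 1264 in CD25+ Foxp3- cells, against 796 in CD25- Foxp3- cells.

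Other immediate early and feedback genes differed in both directions. Of 29 measured genes on that list 14 had a range of at least 2-fold, against 32.6% of all measured genes. Set against CD25- Foxp3- cells, 3 were at least 2-fold higher and 2 lower in CD25hi Foxp3+ cells, where 7.09% and 3.74% of all measured genes were. In CD25lo Foxp3+ cells 3 were higher and 2 lower, against 9.09% and 6.88% of all measured genes. In CD25+ Foxp3- cells 3 were higher and 5 lower, against 12.1% and 6.43%. The list's median log2 difference was -0.05 in CD25hi Foxp3+, 0.15 in CD25lo Foxp3+ and -0.40 in CD25+ Foxp3- cells. Dusp4, a phosphatase that switches off ERK, read 2090.5 in CD25hi Foxp3+, 1839.9 in CD25lo Foxp3+ and 830.4 in CD25+ Foxp3- cells, against 119.5 in CD25- Foxp3- cells. Its range of 17.5-fold was the widest of the list, and its low array was that of Egr2. Rgs1, a brake on chemokine receptor signalling, had the same low array and read 3565 in CD25hi Foxp3+, 2748 in CD25lo Foxp3+ and 1647 in CD25+ Foxp3- cells, against 739 in CD25- Foxp3- cells.

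Klf2, the quiescence and homing factor, read 1908 in CD25hi Foxp3+, 1267 in CD25lo Foxp3+ and 697 in CD25+ Foxp3- cells, against 3039.7 in CD25- Foxp3- cells, where it was highest. Myc, the growth factor-induced transcription factor, read 828 in CD25hi Foxp3+, 204 in CD25lo Foxp3+ and 802 in CD25+ Foxp3- cells, against 466 in CD25- Foxp3- cells. Its CD25lo Foxp3+ array was the lowest, as it was for Jun.

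**Figure D4:**
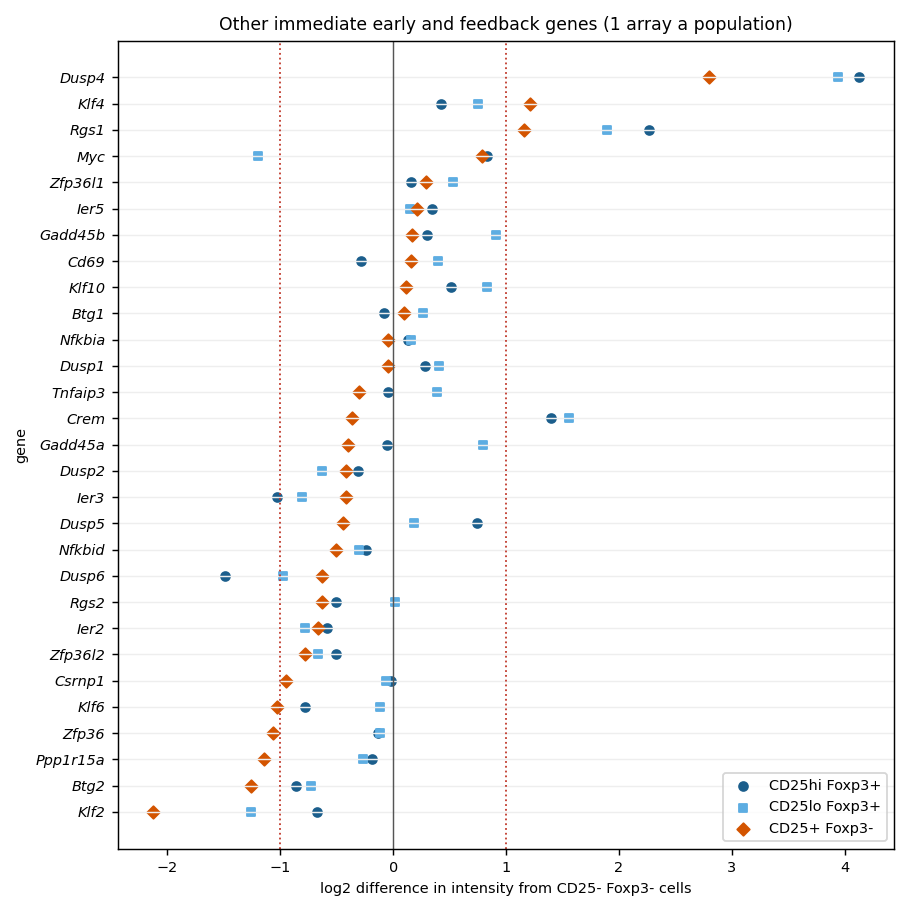
Log2 difference in intensity from CD25- Foxp3- cells for the 29 other immediate early and feedback genes, with 1 point a population (1 array each) and dotted lines at 2-fold. Dusp4 and Rgs1 lie above 2-fold in all 3 populations, and 5 genes lie below 2-fold in CD25+ Foxp3- cells.

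Among the AP-1 partners, which can pair with FOS and JUN proteins or compete for their sites, 12 of 14 genes were measured. Only 10 of the 12 reached the filter in all 4 arrays, and Atf3 and Batf3 were measured through arrays where they are high. In CD25hi Foxp3+ cells 2 were at least 2-fold higher than in CD25- Foxp3- cells and 0 lower, in CD25lo Foxp3+ cells 3 were higher and 2 lower, and in CD25+ Foxp3- cells 3 were higher and 0 lower. The shares of all measured genes are those given for the preceding list, 7.09% and 3.74%, 9.09% and 6.88%, and 12.1% and 6.43%. Maf, which drives IL-4, IL-10 and IL-21 production, read 1942 in CD25hi Foxp3+, 6039.9 in CD25lo Foxp3+ and 3904 in CD25+ Foxp3- cells, against 585 in CD25- Foxp3- cells. Batf, the partner of JUN proteins and IRF4, read 1101 in CD25hi Foxp3+, 1544 in CD25lo Foxp3+ and 715 in CD25+ Foxp3- cells, against 474 in CD25- Foxp3- cells. Its relative Batf3 was measured through the CD25+ Foxp3- array alone, at 75.9, and was at the floor in CD25- Foxp3- cells, so it was at least 7.51-fold higher there. Bach2, which competes with AP-1 and keeps T cells quiescent, was 2.7-fold lower in CD25lo Foxp3+ cells, at 593 against 1601. Fos, Fosb, Jun and Junb, read from their brightest probe sets, had ranges between 1.2-fold and 1.89-fold.

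Of the EGR co-factors and negative regulators of antigen receptor signalling 13 of 14 were measured. Those at least 2-fold apart from CD25- Foxp3- cells were Ndrg1, 2.38-fold higher in CD25hi Foxp3+ cells, Sh2d1a and Sla, 3.4-fold and 2.48-fold higher in CD25lo Foxp3+ cells, and Dgka, 2.45-fold lower in CD25+ Foxp3- cells. Ndrg1 is known as a target of Egr2 in tolerant T cells, Sh2d1a encodes the SLAM adaptor SAP, Sla an adaptor that lowers receptor levels and Dgka a kinase that removes diacylglycerol. Nab1 and Nab2, the co-repressors that bind EGR proteins and were chosen for that role after their values were seen, had ranges of 1.56-fold and 1.22-fold. The counts of this list, 1 higher in CD25hi Foxp3+ cells, 2 higher in CD25lo Foxp3+ cells and 1 lower in CD25+ Foxp3- cells, stood against 7.09%, 9.09% and 6.43% of all measured genes.

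The genes of the path from the antigen receptor to ERK, JNK and calcineurin varied little, with 22 of 28 measured and 3 at least 2-fold apart from CD25- Foxp3- cells in any population. The calcineurin subunit gene Ppp3ca was 2.01-fold higher in CD25lo Foxp3+ cells, and Elk3, a partner of serum response factor, was 2.32-fold higher in CD25+ Foxp3- cells. Mrtfa, a co-activator of serum response factor, read 357 in CD25hi Foxp3+, 288 in CD25lo Foxp3+ and 220.3 in CD25+ Foxp3- cells, against 649 in CD25- Foxp3- cells. It was highest where Egr2 was lowest, 2.26-fold and 2.95-fold lower in CD25lo Foxp3+ and CD25+ Foxp3- cells. The counts were 0 in CD25hi Foxp3+ cells, against 7.09% of all measured genes higher and 3.74% lower, 1 higher and 1 lower in CD25lo Foxp3+ cells, against 9.09% and 6.88%, and likewise 1 and 1 in CD25+ Foxp3- cells, against 12.1% and 6.43%.

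Many T cell genes tied to NR4A in other studies differed widely. Of 17 measured and set against CD25- Foxp3- cells, 7 were at least 2-fold higher and 2 lower in CD25hi Foxp3+ cells, 10 higher and 2 lower in CD25lo Foxp3+ cells, and 10 and 0 in CD25+ Foxp3- cells. Of all measured genes 7.09% were higher and 3.74% lower in CD25hi Foxp3+ cells, while CD25lo Foxp3+ cells had 9.09% and 6.88% and CD25+ Foxp3- cells 12.1% and 6.43%. Only 11 of the 17 reached the filter in all 4 arrays, so the rest were measured through arrays where they are high, and Foxp3 was sorted on. Ikzf2 (Helios) read 4891 in CD25hi Foxp3+, 7034 in CD25lo Foxp3+ and 1917 in CD25+ Foxp3- cells, against 424 in CD25- Foxp3- cells. Il2 read 286 and Il21 read 1794 in CD25+ Foxp3- cells, against 17.3 and 122 in CD25- Foxp3- cells, while Nr4a1 was 0.813 times as high there. Foxp3 read 1308 and 1117 in the Foxp3+ arrays and 16.8 and 17.6 in the Foxp3- arrays.

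Markers of other cells moved with the populations. Of 10 T cell markers 8 were measured, all past the filter in all 4 arrays, and their summed level was 39769 in CD25hi Foxp3+, 44191 in CD25lo Foxp3+ and 26919 in CD25+ Foxp3- cells, against 38940 in CD25- Foxp3- cells. The low array was the same as for Nr4a1, Egr1, Fos and Junb. The sum of 12 measured heat shock and stress genes of 15 was 79933 in CD25hi Foxp3+, 77506 in CD25lo Foxp3+ and 110629 in CD25+ Foxp3- cells, against 79976 in CD25- Foxp3- cells. The list was not of 1 kind, with 7 of its genes highest in CD25+ Foxp3- cells and 5 highest in CD25- Foxp3- cells. Of all measured genes 30.1% and 30.7% were highest in these arrays. Set against CD25- Foxp3- cells, 0 genes of the list were at least 2-fold higher and 2 lower in CD25hi Foxp3+ cells. In CD25lo Foxp3+ cells 0 were higher and 1 lower, and in CD25+ Foxp3- cells 2 and 1. The shares of all measured genes past 2-fold are those given for the preceding lists. Hspa1a, an inducible HSP70 gene with the widest range of the list, read 173 in CD25hi Foxp3+, 433 in CD25lo Foxp3+ and 738 in CD25+ Foxp3- cells, against 1039 in CD25- Foxp3- cells, and Hspa1b was likewise highest in CD25- Foxp3- cells. Hspe1, a mitochondrial chaperone, read 8025 in CD25+ Foxp3- cells, against 2421 in CD25- Foxp3- cells.

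Of 32 measured markers of cells other than CD4+ T cells, 13 were highest in CD25+ Foxp3- cells and 16 others in CD25- Foxp3- cells. Of all measured genes 30.1% and 30.7% were highest there. Past the filter in all 4 arrays were 5 of 9 measured B cell, 7 of 10 CD8 T and NK and 2 of 8 myeloid and dendritic markers. So were 0 of 3 red cell and platelet and 1 of 2 gamma delta T and NKT markers. The rest were measured through arrays where they are high, so these counts follow in part from the filter. Of 12 B cell markers 9 were measured, with sums of 9319 in CD25hi Foxp3+, 10857 in CD25lo Foxp3+ and 13634 in CD25+ Foxp3- cells, against 16480 in CD25- Foxp3- cells, and Cd79a and Pax5 were under the filter. Most of each sum was Ighm, with 8884 in CD25hi Foxp3+, 9906 in CD25lo Foxp3+ and 10053 in CD25+ Foxp3- cells, against 14192 in CD25- Foxp3- cells. The median B cell marker ran the other way in CD25+ Foxp3- cells, with a log2 difference of 0.64 from CD25- Foxp3- cells, and 5 of the 9 were highest there, while it was -2.13 in CD25hi Foxp3+ and -1.16 in CD25lo Foxp3+ cells. Of 13 CD8 T and NK markers 10 were measured, with sums of 997 in CD25hi Foxp3+, 1087 in CD25lo Foxp3+ and 2262 in CD25+ Foxp3- cells, against 2479 in CD25- Foxp3- cells, and Klra1 and Klra7 were under the filter. Read by Foxp3 at a gap of 1.5-fold, 7 of the 10 were lower in Foxp3+ cells and 1, Gzmb, higher, against 4.73% of all measured genes in either direction. Gzmb read 323 in CD25hi Foxp3+, 422 in CD25lo Foxp3+ and 96.4 in CD25+ Foxp3- cells, against 46.6 in CD25- Foxp3- cells. Of 14 myeloid and dendritic markers 8 were measured, with sums of 214 in CD25hi Foxp3+, 491 in CD25lo Foxp3+ and 806 in CD25+ Foxp3- cells, against 844 in CD25- Foxp3- cells. Itgam, Itgax, Cd14, Flt3, Xcr1 and Siglech were under the filter. Of the 8 measured, 5 were highest in CD25- Foxp3- cells, among them Csf1r at 305 and Lyz2 at 147. The other 3 were highest in CD25+ Foxp3- cells, among them Fcer1g at 294 and Tyrobp at 110. The 3 measured red cell and platelet markers of 8 summed to 58 in CD25hi Foxp3+, 127 in CD25lo Foxp3+ and 352 in CD25+ Foxp3- cells, against 622 in CD25- Foxp3- cells. The 2 measured gamma delta T and NKT markers of 5 summed to 960 in CD25hi Foxp3+, 1418 in CD25lo Foxp3+ and 881 in CD25+ Foxp3- cells, against 1029 in CD25- Foxp3- cells. Nearly all of each such sum was Cd1d1, at 950, 1408, 799 and 1012 for the 4 populations as just listed. Zbtb16, the other marker, ran another way. It was highest on the CD25+ Foxp3- array, at 82.2, with 17.1 for CD25- Foxp3- cells and the floor value for both Foxp3+ arrays. The part of these other cells, of T cell content and of stress in the member values was not tested. In bulk samples such as these, fewer cells with a transcript and less of it per cell cannot be told apart. The 6 measured housekeeping genes had a median log2 difference from CD25- Foxp3- cells between -0.02 and 0.14.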

How the data were processed

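RNA of 4 sorted populations was hybridised to 1 Affymetrix array each, after 2 cycles of in vitro amplification, per the labels' protocols, and groups come from the sample titles. The deposited values are 1 linear intensity per probe set. The sources used here do not state how the authors summarised or normalized them. The column medians lay within 10%, so the deposited scale was kept. Of 45101 probe sets, 34945 had exactly 1 gene in the platform annotation, 932 had several, 9160 had none listed and 64 controls were left out.

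The floor, filter and brightest probe set rule are given with the results. A gene counted at 2-fold between 2 arrays, or at a gap of 1.5-fold between 2 pairs, with no test. The named genes were all members, up to 4 of each list with the widest range among those past 2-fold against CD25- Foxp3- cells, and the 2 genes nearest to each member with a 2-fold range. Atf3 was named besides, only for its values near the filter. Members and lists were chosen with earlier results of these data known. Alternatives changed the floor, filter, scaling, probe set and thresholds, and the counting was tested on simulated data. Python 3.11.15, numpy 2.4.6, pandas 2.3.3 and matplotlib 3.10.9 were used.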

Additional observations from a re-analysis of the deposited data

Results flagged for a closer look

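Among the members that moved in opposite directions with CD25 in Foxp3+ and in Foxp3- cells, Egr3 did so by at least 1.5-fold in both. Its log2 difference was -1.02 for CD25hi over CD25lo Foxp3+ cells and 0.69 for CD25+ over CD25- Foxp3- cells. In fold terms it was 2.03-fold lower in the CD25hi Foxp3+ cells and 1.61-fold higher in the CD25+ Foxp3- cells. Each value rests on 1 array against 1 array and on 1 probe set, and the difference between them was not tested. Egr2, Nr4a1 and Jun also had opposite signs. For Egr2 the log2 differences were -0.39 and 1.67, farther apart than those of Egr3, and for Nr4a1 they were 0.24 and -0.30 and for Jun 0.55 and -0.30, in Foxp3+ and in Foxp3- cells in that sequence.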

How the results depend on the processing

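No paired analysis was possible because each population has 1 array. Of 480 recomputed log2 differences of the members, 60 under 8 settings each, 469 moved by less than the usual spread between probe sets of a gene or not at all. The other 11 moved by more, all under another choice of probe set and all in Nr4a2, Jun or Egr2. Many could not move. Every member was read above the floor and the filter in all arrays, so those settings could change no member value. Nor could the choice of probe set for the 7 members with 1 probe set past the filter. None of the differences of 2-fold or more changed direction under the 8 settings. Nr4a2 did change direction below 2-fold. CD25hi minus CD25lo Foxp3+ cells was 0.30 on the log2 scale as reported, -0.62 with the median probe set and -0.63 with the widest-ranging one, and CD25hi Foxp3+ minus CD25+ Foxp3- cells was 0.49, -0.31 and -0.46 in that sequence of settings. With the median of a gene's probe sets or with its widest-ranging probe set, the members with a 2-fold range numbered 4 and not 2. Against CD25- Foxp3- cells, 2 members were then higher in CD25lo Foxp3+ and 2 in CD25+ Foxp3- cells, and 1 was lower in CD25lo Foxp3+ cells. With the median, 0 were higher in CD25hi Foxp3+ cells. The shares of all measured genes for these counts were not computed under either choice of probe set, so the counts have no background beside them. Taking the widest-ranging probe set can only raise the range of a gene. Scaling the arrays to a common median put 1 member, Egr3, 2-fold lower in CD25hi Foxp3+ cells set against CD25+ Foxp3- cells. The count of members with no overlap between Foxp3+ and Foxp3- arrays was 6 as reported, 5 with the common median or either other probe set choice and 4 under quantile normalization. The floor and the filter moved no count of members, and could not, for the reason given above.

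At a threshold of 1.5-fold, 8 members had that range, against 64.2% of all measured genes. Against CD25- Foxp3- cells, 3 were higher in CD25hi Foxp3+, 2 in CD25lo Foxp3+ and 2 in CD25+ Foxp3- cells, with 1 lower in each of the last pair. The shares of all measured genes higher were 14.6%, 17.4% and 22.3%, and those lower in the last pair 17.5% and 17.8%. Against CD25+ Foxp3- cells, 2 were higher and 1 lower in CD25hi Foxp3+ cells, against 14.9% and 15.5% of all measured genes, and likewise in CD25lo Foxp3+ cells, against 13.7% and 18.8%. At 3-fold 1 member had the range, against 13.7% of all measured genes. In CD25+ Foxp3- cells 1 member, Egr2, was that far above CD25- Foxp3- cells, as were 5.24% of all measured genes. The count above CD25- Foxp3- cells was 0 for CD25hi Foxp3+ (share 3.14%) and 0 for CD25lo Foxp3+ (share 4.22%). Between the Foxp3+ populations 0 members were 3-fold lower on the CD25hi array, where the share was 0.551%. With shares this small, 0 of 10 members says little. Under the pairing by neither marker, 2 members passed a gap of 1.2-fold and 0 a gap of 2-fold, against 13.9% and 0.561% of all measured genes. Leaving out 1 population, chosen after seeing the data, gave 1 member with a 2-fold range without CD25hi Foxp3+ cells (Egr2, against 29.6% of all measured genes), 1 without CD25lo Foxp3+ cells (Egr2, 25.2%), 2 without CD25+ Foxp3- cells (19.9%) and 1 without CD25- Foxp3- cells (Egr3, 20%). The number of arrays limits the precision.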
